A study of Mus musculus with 8 samples.

Results

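C1q-low monocytes are described here, the Lyz2-expressing leukocytes of B16-OVA tumors that carried almost no RNA of the complement gene C1q. They were found in the unique molecular identifiers (UMIs, each standing for 1 captured RNA molecule) of a single-cell RNA-seq matrix of CD45+ tumor-infiltrating leukocytes (TILs). A cell had to hold 500 to 6000 genes, 2000 to 40000 UMIs, 5 to 60% ribosomal protein UMIs and under 10% mitochondrial UMIs. It then had to have at least 5 UMIs of Lyz2, at most 1 UMI of C1qa, C1qb and C1qc together, fewer than 2 of Siglech, and 0 of Cd3e, Ncr1, Cd79a, Cd209a and Fscn1. Of 15700 barcodes, 12828 passed the cell filter and 902 of these met the whole rule. The cells were thus chosen by their UMIs of Lyz2, of the C1q genes and of the excluded genes, whose values are given only as a description.

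The mice were C57BL/6, each with a subcutaneous tumor of B16-OVA, a melanoma line that carries ovalbumin. Those treated by adoptive cell transfer (ACT) received ovalbumin-specific OT1 CD8+ T cells on days 12 and 15 of tumor growth, without lymphodepletion. The recipients were female and 7 weeks old at tumor injection, and their own immune system, the source of the monocytes, was intact. The 8 libraries were non-treated tumors at day 5, untransduced ACT at days 5 and 12, at day 12 PD1d/IL-2v ACT and PD1d/IL-33 ACT and, on days 5, 12 and 26, PD1d/IL-2v/IL-33 ACT, called combination ACT below, days being counted from cell transfer and, for the non-treated tumors, as labelled. PD1d is a secreted decoy made of the mouse PD-1 ectodomain and a human IgG4 Fc, and IL-2v is an interleukin-2 variant that does not bind CD25. For combination ACT, cells carrying PD1d and IL-2v were mixed with cells carrying PD1d and IL-33. The study's methods describe pooled tumors of 5 mice per condition at days 5 and 12, and neither day 26 nor a non-treated group for this experiment. Each condition and day was 1 library, so differences between libraries have no test, and the 95% intervals below cover counting error only.

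Monocytes leave the bone marrow as classical cells, which in mice bear Ly6C and CCR2, follow CCL2 into inflamed tissue and can become macrophages or antigen-presenting cells there. Nonclassical monocytes bear CX3CR1 rather than Ly6C, depend on the transcription factor NR4A1 and patrol the vessel wall. Within tumors, monocytes respond to interferons, to interleukin-1 family cytokines and to growth factors such as GM-CSF, which signals through STAT5.

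PD1d/IL-2v ACT at day 12 and untransduced ACT at day 5 had the largest numbers of these cells, 231 and 239. There were 211 after combination ACT at day 26, 92 at day 5 and 77 at day 12. With PD1d/IL-33 there were 27, in non-treated tumors 15 and after untransduced ACT at day 12 only 10. The files hold a round number of barcodes for each library (400 to 3700), and whether barcodes were left out before deposit is not known, so these numbers count cells in the files and do not measure cells per tumor. Libraries with fewer than 20 of the cells were kept out of every ratio. Together the 902 cells held 7974397 UMIs with a median of 8571 per cell, and the median by library ran from 4855 after PD1d/IL-33 ACT to 11862 after combination ACT at day 5.

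As a share of all cells that passed the filter, the monocytes made up 12.2% (95% interval 10.8–13.8%, Clopper-Pearson) after untransduced ACT at day 5 and 11.9% (10.5–13.4%) after PD1d/IL-2v ACT. The 6 other libraries lay between 3.52% and 5.77%. The sort was for CD45+ cells enriched in CD8+ TILs, and it can set these shares. Set against all cells of the same gate whatever their C1q count, 46.2% (39.2–53.4%) were C1q-low after combination ACT at day 5, and the 7 other libraries ran higher, from 71.4% to 88.5%. That library held 96 C1q-positive macrophages (at least 5 C1q UMIs, otherwise the same gate), more than its 92 monocytes, and untransduced ACT at day 5 held 27.

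**Figure D1:**
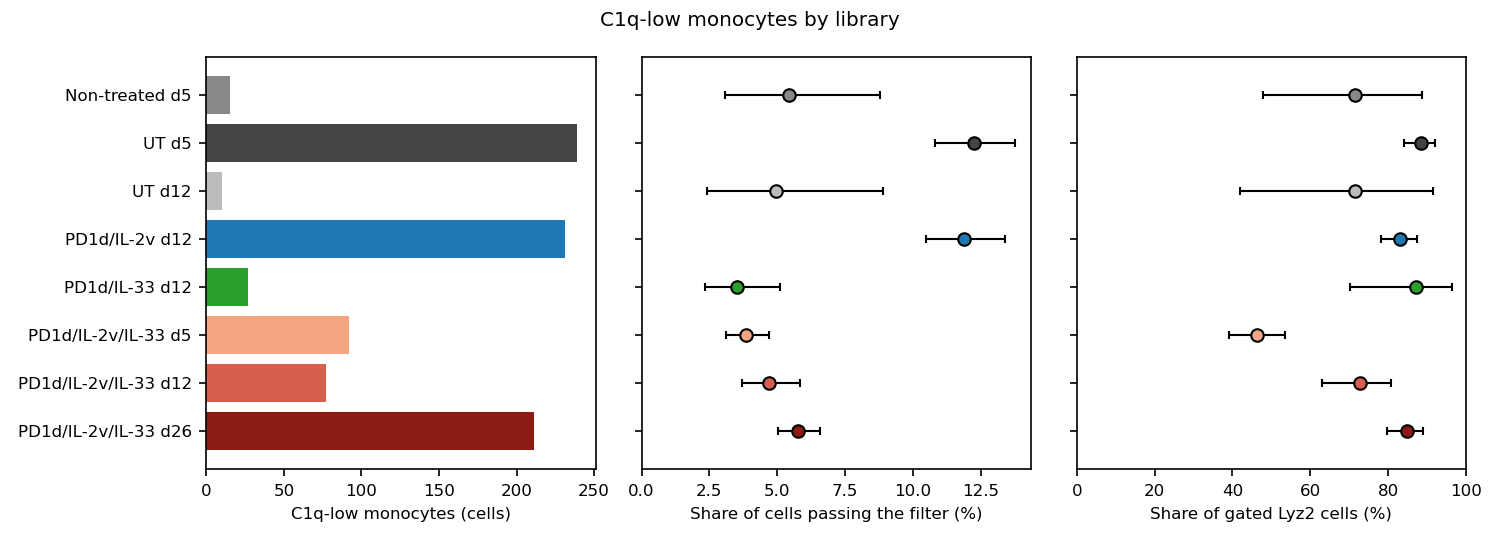
C1q-low monocytes in each library, as a number of cells (left), as a share in percent of cells that passed the filter (middle) and as a share of all cells of the gate whatever their C1q count (right), with exact 95% intervals. NT stands for non-treated, UT for untransduced ACT and PD1d/IL-2v/IL-33 for combination ACT, here and in the other plots. Combination ACT at day 5 stands lowest in the right panel at 46.2%.

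The edges of the rule were thinly filled. Among members, 13 cells had exactly 5 Lyz2 UMIs and 67 had 5 to 9, while the median was 70 and the highest value 672, and 10 cells outside had 4 Lyz2 UMIs with all else met. No C1q UMI was found in 863 members and a single UMI in 39, whereas 12 cells outside had 2 and 18 had 3 or 4. Of the 12828 cells, the 770 with the highest doublet scores (Scrublet) included 40 members. No barcode sequence was shared between members of different libraries, and 18 barcodes that were not members shared their sequence with a member of another library.

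The markers named for the label were present. After thinning each cell to 2000 UMIs, the share of members with an Il1b UMI (interleukin-1β) was 66.7% to 86.7% across libraries, against 0.382% to 6.78% of Cd3e-positive cells, which should lack it and serve as a measure of free RNA. Clec4e, a C-type lectin that senses dying cells, was found in 29.6% to 67.8% of members and at most 1.87% of Cd3e-positive cells. Chil3, a chitinase-like protein of classical monocytes, was found in 20% to 78.3% and at most 1.36%. Ly6c2, which encodes Ly6C2, and Ccr2 are also expressed by activated CD8+ T cells. Ly6c2 did not separate the populations: it was found in 26.7% to 83.7% of members and in 27.6% to 64.5% of Cd3e-positive cells. The Cd3e-positive cells had a median of 4530 to 7188 UMIs by library.

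Markers of lymphocytes, melanoma cells and mast cells were low. The 10 T cell markers, of which Cd3e was set to 0 by the rule, summed to 7.22 to 43.6 counts per 1000000 UMIs (CPM) in the members by library and to 3935 to 6832 CPM in Cd3e-positive cells. In the members of non-treated tumors, 8 of the 9 T cell markers outside the rule were at 0. The 7 natural killer cell markers summed to at most 39.5 CPM, the 9 B cell markers (6 of them in the files and outside the rule) to at most 9.61 CPM, the 6 melanoma markers to at most 21.7 CPM, and the 6 mast cell and basophil markers to at most 0.956 CPM. The 6 stroma and endothelium markers summed to at most 7.22 CPM, and of the 5 eosinophil markers Ear2, which nonclassical monocytes also express, made up nearly all of 17.2 to 206 CPM. In the dendritic cell lists, genes shared with monocytes led: Irf8 was the most abundant of the 7 conventional type 1 markers (376 to 1144 CPM in all) and of the 6 plasmacytoid markers outside the rule (603 to 1242 CPM). Sirpa was the most abundant of the 9 conventional type 2 markers outside the rule (311 to 570 CPM in all), and the 6 mature dendritic cell markers outside it summed to at most 79.4 CPM.

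Neutrophil genes were the exception, in part of the libraries. Their 12 markers summed to 1848 CPM after combination ACT at day 5, to 1655 CPM with PD1d/IL-2v and to 904 CPM after untransduced ACT at day 12, where 1 cell held every S100a8 UMI, and to 227 to 347 CPM in the 5 others. S100a8, shared by neutrophils and classical monocytes, was the most abundant of them in those 3 libraries. Among the other markers, Retnlg was at most 5.05 CPM, Mmp9 1.86, Ly6g 12.3 and Cxcr2 8.61 in any of the 8 libraries. Higher levels were found of Csf3r, the G-CSF receptor (32.7 to 103 CPM), of Mmp8 (7.22 to 86.1 CPM) and of Trem1, Il1r2, Hdc and G0s2, which were at 0 in at least 1 library and at most at 101, 75.3, 43.3 and 24.3 CPM. S100a9 ran from 0 to 285 CPM.

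The 6 markers differed between libraries in unlike ways. Chil3 was at 4594 CPM (4465–4726) after combination ACT at day 5, at 1585 CPM at day 12 and at 485 CPM at day 26, and at 1168 CPM after untransduced ACT at day 5, with 950 CPM for PD1d/IL-2v and 925 CPM for PD1d/IL-33 ACT. The early combination library was thus highest, with an interval clear of every other. Its share of members with a Chil3 UMI at equal depth was also highest, 78.3%.

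Ly6c2 was highest after combination ACT at days 5 and 12, at 2414 and 2521 CPM, and stood at 739 CPM at day 26. The remaining libraries with at least 20 members lay at 1152 to 1515 CPM. Ccr2, the CCL2 receptor, was at 654, 618 and 542 CPM on the 3 days of combination ACT, at 466 CPM after PD1d/IL-33, 388 CPM after untransduced ACT at day 5 and, lowest, 264 CPM with PD1d/IL-2v. The near-identical copies Chil4, Ly6c1 and Lyz1 were at no more than 7.65, 14.9 and 76.3 CPM, and the values of Chil3, Ly6c2 and Lyz2 are uncertain where reads were split between copies.

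Il1b and Clec4e had another order. Il1b was at 7966 CPM after untransduced ACT at day 5 and 7174 CPM with PD1d/IL-2v, at 3912, 3795 and 3888 CPM on the 3 days of combination ACT and, lowest of these, at 2537 CPM with PD1d/IL-33. Clec4e was at 1062 and 872 CPM in the first pair, at 506, 336 and 390 CPM after combination ACT and at 263 CPM with PD1d/IL-33. The libraries of untransduced ACT at day 5 and of PD1d/IL-2v ACT were the highest for both genes among those with at least 20 members.

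Lyz2, the lysozyme used by the rule, was lowest after combination ACT at day 5 (4626 CPM) and at 9474 to 16081 CPM elsewhere.

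**Figure D2:**
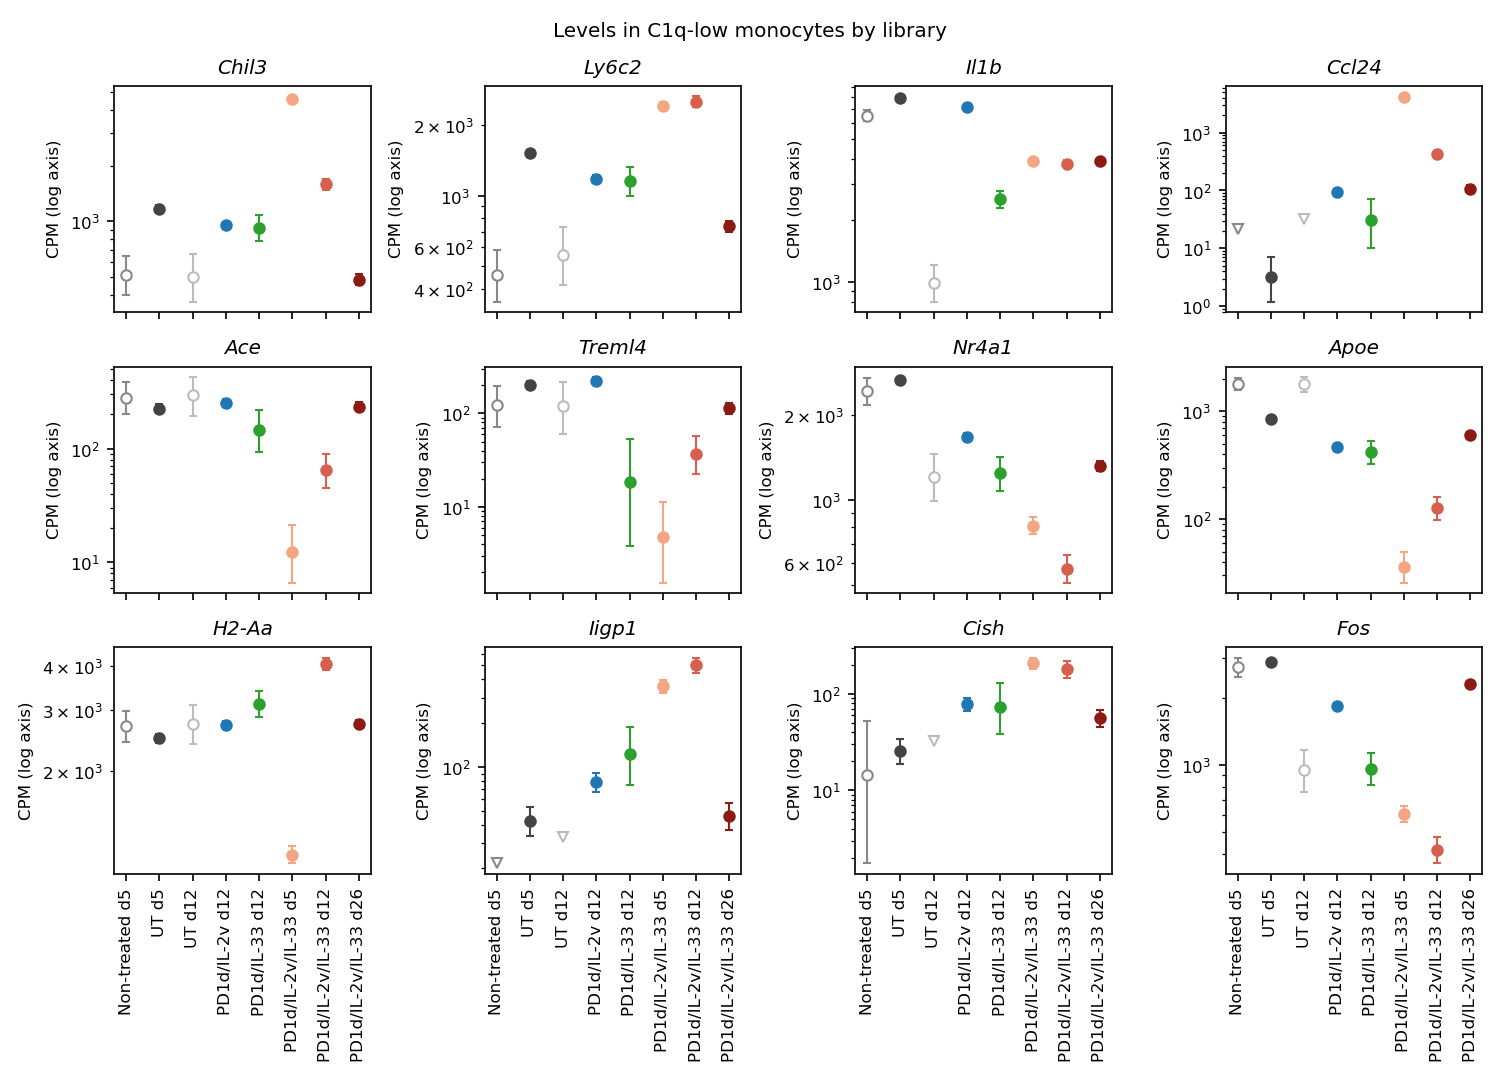
Levels of 12 genes in the C1q-low monocytes of each library, in CPM on a log axis, with exact 95% Poisson intervals; open circles mark libraries with fewer than 20 members and open triangles a count of 0, drawn at the floor of 3 UMIs. Chil3 and Ccl24 peak after combination ACT at day 5 (4594 and 4120 CPM), where Ace, Treml4 and Apoe are lowest (12.4, 4.78 and 36.3 CPM).

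Among the members themselves, cells with Ly6c2 RNA had more of some, but not all, of the classical genes and less of several nonclassical ones. In cells thinned to 2000 UMIs, members with at least 2 Ly6c2 UMIs were compared with members with 0, within each of the 3 libraries that had at least 20 of both (untransduced ACT at day 5, PD1d/IL-2v ACT, and combination ACT at day 26). Of 786 genes, 28 had a median log2 ratio of at least 1 and 14 of at most −1. Chil3 led the higher side with a median of 2.24 (2.24, 2.70 and 1.0 in the 3 libraries in that order), followed by Cxcl9 (2.01), F13a1 (1.96), Anxa1 (1.85), Capg (1.71), Glrx (1.56), Fgl2 (1.54), Tagln2 (1.44), Ccr2 (1.42) and Cxcl10 (1.41). F13a1 encodes a coagulation factor subunit made by classical monocytes, and Cxcl9 and Cxcl10 encode interferon-induced ligands of CXCR3.

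On the lower side stood Stap1 (−2.12), Ear2 (−1.90), Ace (−1.83), Pou2f2 (−1.52), Zfp36l1 (−1.37), Fcgr4 (−1.25), Id2 (−1.24), Gngt2 (−1.20), Ddx3x (−1.12) and Arhgef1 (−1.12). Ace, which encodes angiotensin-converting enzyme, and Fcgr4, an Fc receptor, are known from nonclassical monocytes. The sign was the same in all 3 libraries for each of these 20 genes. Of 10 classical markers with enough UMIs, 5 had a median of at least 1 (Chil3, F13a1, Ccr2, Ms4a4c and S100a4) and 0 of at most −1. Plac8 (0.53), Hp (0.51), Thbs1 (0.24), Clec4e (−0.03) and Il1b (−0.34) were the others, and Clec4e and Il1b were below 0 in 2 of the 3 libraries. Of 3 nonclassical markers with enough UMIs, Ace had a median of at most −1. Among all 9, most with too few UMIs to be ranked, Cd300e had −3.14, Spn −2.07, Pglyrp1 −1.95, Treml4 −1.62, Eno3 −1.61, Cx3cr1 −1.05, Itgal −0.78 and Nr4a1 −0.57.

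The share of members with at least 2 Ly6c2 UMIs at that depth was 71.7% (95% interval 61.4–80.6%) and 67.5% (55.9–77.8%) after combination ACT at days 5 and 12, and 28.4% (22.5–35.0%) at day 26. It was 51.9% (31.9–71.3%) after PD1d/IL-33 ACT, 41.0% (34.7–47.5%) after untransduced ACT at day 5 and 35.9% (29.7–42.5%) after PD1d/IL-2v ACT. The makeup of the members by Ly6c2 thus differed between some of the libraries compared below. The intervals of combination ACT at days 5 and 12 overlapped, and that of PD1d/IL-33 ACT overlapped those of PD1d/IL-2v ACT and of combination ACT at day 12.

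Against C1q-positive macrophages of the same tumors, the monocytes had less RNA of most MHC class II genes and of several macrophage markers, and more of some classical monocyte markers. Since C1q chose both populations, this is a description. In the 5 libraries with at least 20 cells of both, 55 of 1860 genes had a median log2 ratio of at least 1 and 25 of at most −1. Ifitm6 (2.77), Hp (haptoglobin, 2.51), Gpcpd1 (2.34), Slpi (a protease inhibitor, 2.05), Add3 (2.00), Samsn1 (1.77), Mgst1 (1.70), Pou2f2 (1.69), Lsp1 (1.67) and Cks2 (1.54) were highest. Spp1 (osteopontin, −2.32), Ccl7 (−2.30), Cd63 (−2.09), Gatm (−1.70), Lgmn (a lysosomal protease, −1.47), Sdc4 (−1.43), Cxcl16 (−1.43), H2-Eb1 (−1.43), Sdf2l1 (−1.39) and Ly6a (−1.39) were lowest.

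By list, 4 of 6 MHC class II genes and 4 of 6 macrophage markers had a median of at most −1 and 0 of at least 1. Of 14 classical markers 4 had a median of at least 1, Hp, F13a1 (1.02) and Plac8 (1.07) among them, and 0 of at most −1. In the S100, lysosome and granule list 0 of 10 were higher and 1 was lower, and 0 of 10 MHC class I genes were past 2-fold.

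After combination ACT at day 5, the ratio of each of the 10 leading genes was smaller than its median over the 5 libraries. Hp, for one, had 0.96 there and 2.39 to 3.98 in the others. H2-Aa, H2-Ab1 and Cd74, of MHC class II presentation, had medians of −1.30, −1.37 and −0.98. Ly6c2 was higher in the monocytes in all 5 libraries (median 0.80).

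**Figure D3:**
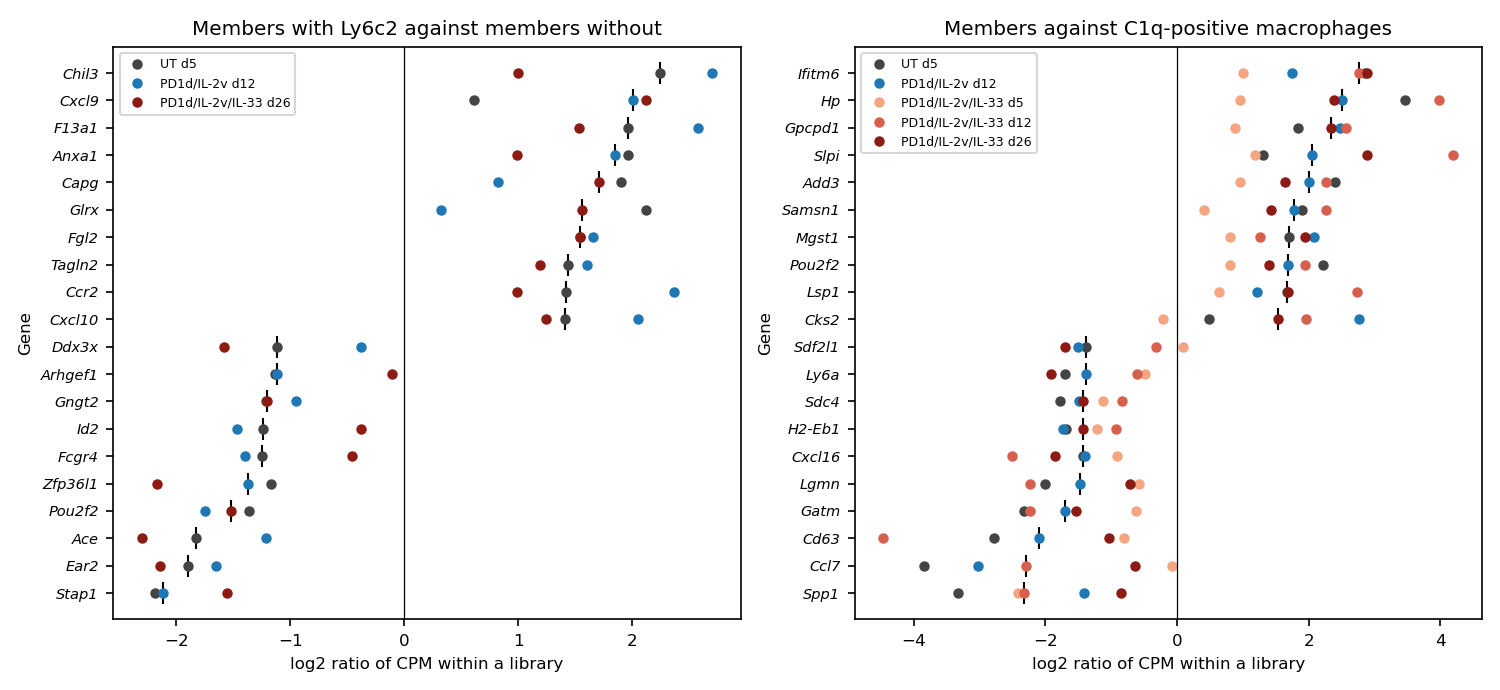
Log2 ratios of CPM taken within a library, for members with at least 2 against 0 Ly6c2 UMIs at equal depth (left) and for members against C1q-positive macrophages (right); each point is a library, each bar the median, and the genes are the 10 highest and 10 lowest by median. The left panel runs from Chil3 at 2.24 to Stap1 at −2.12, and in the right panel combination ACT at day 5 lies nearest to 0 for most genes.

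The libraries were then compared in 6 pairs. A gene was tested where the members of both libraries together had at least 50 UMIs, 10 CPM was added to both levels before the log2 ratio, and a gene was counted as higher or lower at 2-fold. The deposited library table names a Cell Ranger output for each library, and these names hold an identifier whose meaning is not stated. The PD1d/IL-2v and the PD1d/IL-33 library share it. The libraries of the 5 other pairs differ in it, and there whatever it marks cannot be told apart from condition or day. Several pairs share a library, combination ACT at day 12 being in 4 of them.

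At day 5, combination ACT was set against untransduced ACT to see how the monocytes differed early after the transfer of engineered cells. Of 5340 genes, 246 were at least 2-fold higher (4.61%) and 270 at least 2-fold lower (5.06%) in the monocytes of combination ACT. The genes that stood highest included the eosinophil attractant Ccl24, S100a8, S100a9 and Mrc1, and those that stood lowest included Apoe and 3 genes of nonclassical monocytes.

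Ccl24 was at 4120 CPM (3998–4245) in 66 of 92 monocytes after combination ACT and at 3.20 CPM (1.18–6.97) in 2 of 239 after untransduced ACT, a log2 ratio of 8.29 (7.92–8.53). The cell with the most Ccl24 held 11.1% of its UMIs in the first library. At equal depth 57.6% of the members had a Ccl24 UMI, against 2.48% of Cd3e-positive cells of the same library. It was at 420 CPM at day 12 (14 cells, 59.3% of UMIs in 1 cell), at 108 CPM at day 26 (22 cells), at 93.6 CPM after PD1d/IL-2v and 30.6 CPM after PD1d/IL-33 ACT, where 1 cell held every UMI. The early combination library was therefore alone in having Ccl24 in most members. The C1q-positive macrophages of that library had 11036 CPM of Ccl24.

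S100a8 was at 1350 CPM in 65 of the 92 cells and at 32.0 CPM in 17 of 239 (log2 ratio 5.02, 4.72–5.31), and S100a9, its partner in calprotectin, at 233 and 3.20 CPM (4.20, 3.80–4.50). Mrc1, the mannose receptor CD206, was at 154 CPM in 34 cells and at 0.534 CPM in 1 cell (3.96, 3.59–4.18). Each of these genes was found in more members of the engineered library, out of fewer members. The neutrophil list as a whole had 3 of 7 higher and 1 lower (median 0.01).

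Timp1, an inhibitor of matrix proteases, was at 138 against 5.34 CPM (3.27), and Wfdc21 at 103 against 2.14 CPM (3.22). Mmp13, a collagenase, was at 76.5 CPM in 5 cells and at 0 after untransduced ACT, at least 47.8-fold higher against a floor of 3 UMIs. Chemokine genes among the 10 highest rested on fewer cells: Ccl7 was at 333 CPM in 19 cells (4.29, and 1.37 with the narrower cell filter described below), and Ccl8 at 187 CPM in 3 cells, of which 1 held 92.3% of the UMIs (4.22).

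On the lower side, Apoe, which encodes apolipoprotein E, was at 36.3 CPM against 855 CPM (−4.22, −4.60 to −3.84). Adgre4 was at 0.956 against 165 CPM (−4.00), Treml4, a receptor of nonclassical monocytes, at 4.78 against 201 CPM (−3.83), and Ace at 12.4 against 225 CPM (−3.39). Ear2 was at 17.2 against 200 CPM (−2.95) and Eno3 at 4.78 against 101 CPM (−2.91). Id3 (−3.77), Rgs1 (−3.34), Ccrl2 (−3.00) and the interferon-induced Ifit3 (−2.89) completed the 10 lowest.

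All 9 nonclassical markers tested were at least 2-fold lower, with a median log2 ratio of −2.53 beside 0.06 over all 5340 genes. Over the alternative settings described below, Cd300e ranged from −2.26 to −0.53, so it was not past 2-fold in all of them. Restricted to members with at least 1 Ly6c2 UMI, an alternative chosen after the values were seen, 8 of 8 were lower with a median of −2.02. Of 14 classical markers tested, 1 was higher (Chil3, log2 ratio 1.97, 1.89–2.04) and 4 were lower (Clec4e, Ms4a4c, Il1b and Hp), while 9 of the 14 were above 0 and the median was 0.70. In alternative settings Clec4e came as close to 0 as −0.86, Ms4a4c −0.85, Il1b −0.52 and Hp −0.91. None of these 4 was thus past 2-fold in all settings, while Chil3 was (1.76 to 2.26). In 13 genes of the S100, lysosome and granule list, 6 were higher and 1 was lower (Lyz1, −1.46), with Lgals1 (galectin 1) at 1060 against 310 CPM (1.74) and S100a6 at 4072 against 1835 CPM (1.15).

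MHC class II genes were lower at day 5: H2-Eb1 was at 563 against 1576 CPM (−1.47), H2-Aa at 1151 against 2483 CPM (−1.10), H2-Ab1 at 938 against 1974 CPM (−1.06) and Cd74, the invariant chain, at 4379 against 9342 CPM (−1.09). Thus 4 of 7 were past 2-fold. With the narrower cell filter of the study's later experiment, which leaves out cells above 3000 genes or 12000 UMIs, 0 of 6 were.

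Among 15 genes of the interferon-γ response, 5 were higher and 1 lower (median 0.46). Iigp1, an immunity-related GTPase, was at 358 against 42.2 CPM (2.82), Socs1, a feedback inhibitor of cytokine signaling, at 655 against 145 CPM (2.10), and Serpina3g, Gbp4 and Gbp7 were the others. Cxcl9 was lower, at 565 against 1158 CPM (−1.02). In the type I interferon list 0 of 15 were higher and 7 lower (median −0.68), Ifit3, Mx1 (−1.98) and Irf7 (−1.76) with the largest ratios.

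Type 2 and repair genes had 5 of 12 higher and 1 lower, Ear2 (median 0.93). Ccl24, Mrc1 and Chil3 were among the higher ones, as was Pdcd1lg2, the PD-1 ligand PD-L2, at 76.5 against 12.8 CPM (1.92). Retnla, another gene of type 2 activation, had no UMI in the members of any library, while C1q-positive macrophages had 16.2 and 528 CPM after combination ACT at days 5 and 12. Of 16 inflammatory genes, 1 was higher, Il6 at 502 against 113 CPM (2.06), and 7 were lower, Ccl3 (−2.55), Ccl4 (−1.72), Tnf (−1.33) and Il1b (−1.02) among them (median −0.86). Il1b ranged from −1.20 to −0.52 over the alternative settings and was not past 2-fold in all of them.

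Cish, a STAT5 target that restrains cytokine receptors, was at 208 CPM in 72 of 92 cells against 25.6 CPM in 36 of 239 (2.61, 2.25–2.96). At equal depth 35.9% and 3.77% of the members had a Cish UMI. In Cd3e-positive cells, which express Cish themselves, the shares were 23.3% and 19.1%.

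**Figure D4:**
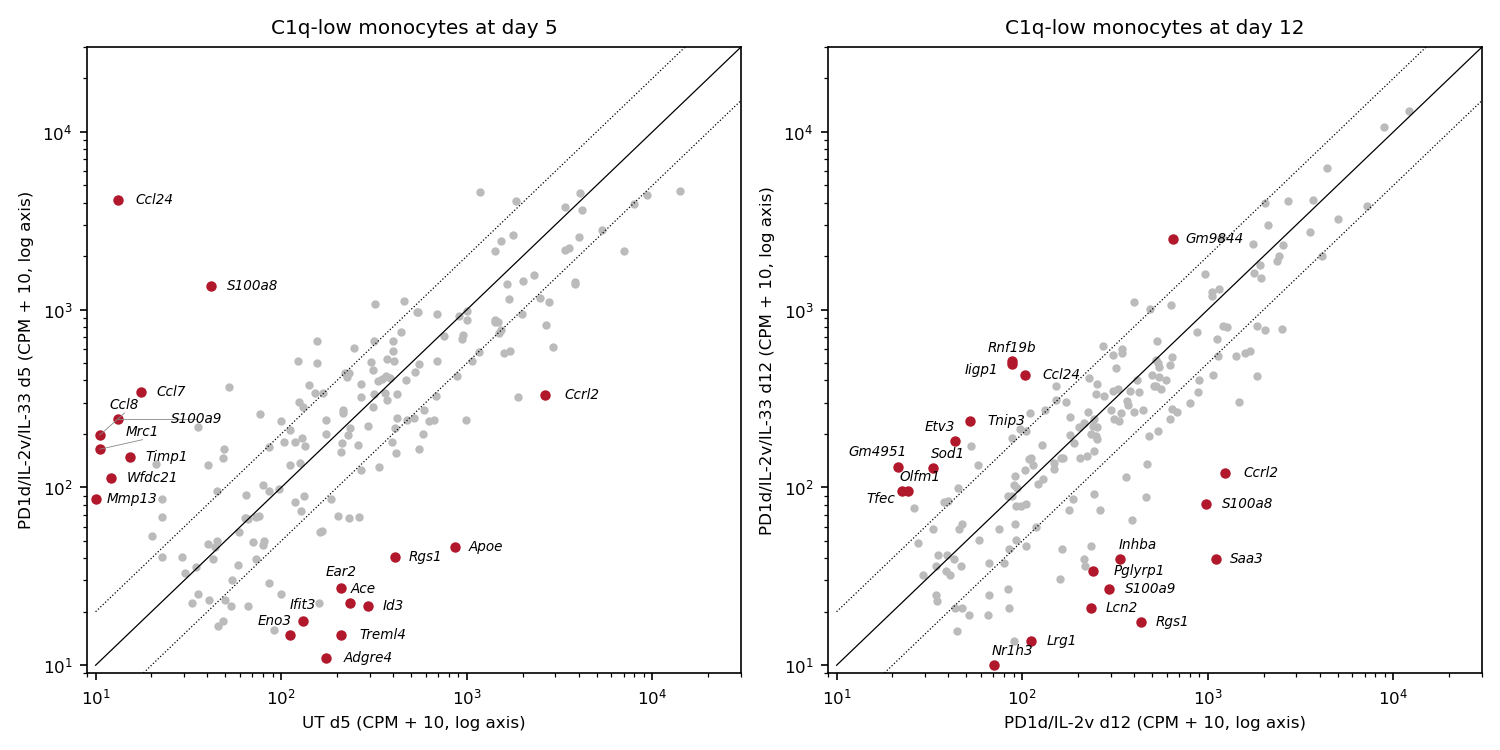
C1q-low monocytes of combination ACT against untransduced ACT at day 5 (left) and against PD1d/IL-2v ACT at day 12 (right), in CPM with 10 added, on log axes; grey points are genes of the lists, red points genes among the 10 highest and 10 lowest, and dotted lines mark 2-fold. Ccl24 lies farthest from the diagonal at day 5, at 4120 against 3.20 CPM.

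Immediate early genes were also lower in this library. Of 10 genes induced when tissue is dissociated, 8 were lower in combination ACT at day 5 (median −1.49) and 0 higher. The list summed to 5732 CPM, Junb being its most abundant gene, against 14702 CPM with Dusp1 the most abundant after untransduced ACT. In Cd3e-positive cells of the same libraries the sum was 1581 against 4194 CPM. Fos was at 604 against 2897 CPM in the monocytes (−2.24) and Jun at 231 against 975 CPM (−2.03). The members of combination ACT at day 5 also had the highest median mitochondrial share, 3.68%, against 1.96% after untransduced ACT. The part of these in the day 5 differences was not tested.

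At day 12, combination ACT, in which cells carrying IL-33 made up part of the transfer, was set against PD1d/IL-2v ACT, with the difference in identifier named above. Of 5016 genes, 186 were at least 2-fold higher (3.71%) and 248 lower (4.94%) with IL-33. The interferon-inducible GTPase genes Gm4951 and Iigp1 had the highest ratios, and Saa3, Rgs1, S100a8 and S100a9 were among the lowest. The S100, lysosome and granule list as a whole had 2 of 13 higher and 3 lower (median −0.27).

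Gm4951, an interferon-inducible GTPase gene, was at 121 CPM in 29 of 77 cells with IL-33 and at 11.5 CPM in 21 of 231 without (log2 ratio 2.61, 2.13–3.05). Iigp1 was at 501 against 78.5 CPM (2.53, 2.27–2.79), and 40.3% against 9.52% of members had a UMI at equal depth, while 3.73% and 5.70% of Cd3e-positive cells did. Rnf19b, a ubiquitin ligase, was at 483 against 78.0 CPM (2.48). Tnip3 (2.17), Olfm1 (2.09), Etv3 (2.07), Ccl24 (2.05), Tfec (1.98), Sod1 (1.97) and the gene model Gm9844 (1.95), whose counts may be shared with a near-identical gene, followed.

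Of these, 9 were spread over many cells, the cell with most UMIs of a gene holding at most 18.5% of them in either library (Olfm1 after PD1d/IL-2v ACT). Ccl24 was not, since 14 of 77 and 6 of 231 cells had it and the top cells held 59.3% and 47.5% of its UMIs.

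Saa3, an acute-phase protein, was at 1095 CPM with PD1d/IL-2v, where 1 cell held 47.1% of it, and at 29.7 CPM with IL-33 (−4.80). Rgs1, a brake on chemokine receptor signaling, was at 428 against 7.43 CPM (−4.65, −5.19 to −3.91). S100a8 was at 973 against 70.5 CPM (−3.61), S100a9 at 285 against 16.7 CPM (−3.47) and Lcn2, lipocalin 2, at 224 against 11.1 CPM (−3.47). The neutrophil list as a whole had 0 of 8 higher and 5 lower (median −1.25), and 1 cell of PD1d/IL-2v ACT held 71.2% of the S100a9 UMIs and 40.0% of those of S100a8. Without the members in which at least 2 of 7 other neutrophil genes were detected, the S100a8 ratio was −2.59, and the same step gave 5.44 for S100a8 at day 5. Over the alternative settings, S100a8 ranged from −4.20 to −1.57 in this day 12 pair. S100a9 ranged from −4.26 to −0.72, so it was not past 2-fold in all of them.

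Ccrl2 (−3.35), Inhba (−3.08), Lrg1 (−3.02) and Pglyrp1 (−2.82) were also among the 10 lowest, with Nr1h3, the oxysterol receptor LXRα, at 60.6 CPM in 52 cells and 0 with IL-33 (at least 10.9-fold lower). Nonclassical markers had 6 of 9 lower and 0 higher (median −1.80), with Treml4 at 37.1 against 224 CPM (−2.31) and Ace at 65.0 against 251 CPM (−1.80). Of 14 classical markers, 4 were higher, Ly6c2 (1.10), Ccr2 (1.20), Fn1 (1.29) and S100a4 (1.46), and 2 lower, Hp (−1.36) and Clec4e (−1.35). Only S100a4 and Hp of these were past 2-fold in all alternative settings.

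In the interferon-γ list 4 of 16 were higher (Iigp1, Gbp4, Socs1 and Irgm1) and 1 lower (Nos2, −1.66). Of these, only Iigp1 was past 2-fold in all alternative settings. Gbp4 fell to 0.90, Socs1 to 0.54 and Irgm1 to 0.51, and Nos2 came as close to 0 as −0.67. MHC class II had 0 of 6 past 2-fold and a median of 0.55, and with the narrower cell filter 5 of 6 were higher. Inflammatory genes had 2 of 17 higher, Il6 (1.70) and the inflammasome sensor Nlrp3 (1.25), and 9 lower with a median of −1.05, among them Il1a (−2.57), Ccl3 (−2.28) and Cxcl3 (−1.85). Cish was at 180 against 77.6 CPM (1.12). Glycolysis and hypoxia genes had 1 of 11 higher (Pgk1, 1.20) and 5 lower, with Aldoa at −1.48 and Ldha at −1.05. The dissociation list had 5 of 10 lower (median −1.03), summed to 4624 against 9613 CPM in the monocytes and 1834 against 3067 CPM in Cd3e-positive cells, and its part was not tested.

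PD1d/IL-33 against PD1d/IL-2v ACT at day 12 sets the cytokines against each other in libraries that share the identifier named above, with 27 monocytes on the IL-33 side. Of 4599 genes, 267 were at least 2-fold higher (5.81%) and 362 lower (7.87%) after PD1d/IL-33 ACT, and with TMM scaling 141 were higher and 548 lower. The inflammatory list had 13 of 17 lower, 0 higher and a median of −1.50, beside −0.01 over all genes. The neutrophil list had 5 of 8 lower and 0 higher (median −1.57), and type 2 and repair genes 5 of 11 lower and 1 higher (median −0.85). The dissociation list had 1 of 10 higher (Hspa1b, 1.45) and 0 lower, but a median of −0.72, and summed to 6551 against 9613 CPM in the monocytes and 2347 against 3067 CPM in Cd3e-positive cells; its part was not tested.

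Il1b was at 2537 against 7174 CPM (−1.50, −1.64 to −1.36), Ccl4 at 276 against 2496 CPM (−3.13), Cxcl2 at 735 against 4114 CPM (−2.47) and Tnf at 36.8 against 226 CPM (−2.34). Il1a had 381 CPM after PD1d/IL-2v ACT and 0 after PD1d/IL-33 ACT, at least 20.7-fold lower. The neutrophil attractant Cxcl3 was at least 8.34-fold lower. Each of the 6 was lower after PD1d/IL-33 ACT, the cytokines and chemokines alike.

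Several of the lowest ratios were of secreted proteins: S100a8 was at 0 (at least 52.9-fold lower), Saa3 at 6.13 CPM (−6.10), S100a9 at 6.13 CPM (−4.20), Lcn2 at 6.13 CPM (−3.86) and Inhba at 18.4 CPM (−3.56). The S100, lysosome and granule list had 1 of 13 higher and 2 lower (median −0.17). Spp1 and Wfdc21 were at 0 after PD1d/IL-33 ACT, at least 12.7-fold and 5.29-fold lower. These genes were found in 20 to 72 of the 231 cells of PD1d/IL-2v ACT and in at most 1 of the 27 of PD1d/IL-33 ACT.

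On the higher side, Wdfy4 (2.16), needed for cross-presentation, Gpr183 (2.16), a receptor for oxysterols, Tnip3 (2.14), Chpt1 (2.13), Cd24a (2.11), Gm9844 (1.97), Rab7b (1.94), Dynlt1c (1.89), Gm2000 (1.85) and Gm15013 (1.85) led. Several rested on a cell or so: 1 of the 27 members held 71.4% of the Cd24a UMIs and 56.5% of those of Wdfy4. Chpt1, a phospholipid synthesis enzyme, was found in all 27 members, with at most 8.16% in a cell, at 601 against 129 CPM. The 7 markers of type 1 conventional dendritic cells summed to 1115 CPM after PD1d/IL-33 and 396 CPM after PD1d/IL-2v ACT, Irf8 being the most abundant in both and 1 and 2 of the markers being at 0. Of the defining genes, Xcr1 was found in 1 and Clec9a in 2 of the 27 members. Without members that had a UMI of Flt3, Xcr1, Clec9a, Ccr7 or Zbtb46, the log2 ratio of Cd24a was −0.22.

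Socs1 was at 386 against 122 CPM (1.58), Fn1, fibronectin, at 441 against 143 CPM (1.56) and S100a4 at 938 against 390 CPM (1.24). Fn1 and S100a4 were the 2 higher of 14 classical markers, of which 3 were lower, Hp (−2.45), Clec4e (−1.69) and Il1b (median −0.13). Socs1 was the 1 higher of 16 interferon-γ genes, of which 3 were lower, Nos2 (−3.08), Cd274 (−1.49) and Serpina3g (−1.01), with a median of −0.45. Nonclassical markers had 0 of 9 higher and 4 lower (median −0.74), Treml4 the lowest at 18.4 against 224 CPM (−3.05). MHC class II genes had 0 of 6 past 2-fold (median 0.27), and 1 cell held 60.1% of the H2-Eb1 UMIs of PD1d/IL-33 ACT.

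Combination ACT, in which cells carrying IL-2v made up part of the transfer, was also set against PD1d/IL-33 ACT on day 12, where 1938 genes reached 50 UMIs. In this pair 105 were higher (5.42%) and 53 lower (2.73%) with both cytokines. Inflammatory genes had 7 of 14 higher and 0 lower (median 0.96), and interferon-γ genes 5 of 15 higher and 0 lower (median 0.80). Of these, Il6, Tnf, Nlrp3, Iigp1 and Serpina3g were past 2-fold in all alternative settings. The others were not: Ccl4 fell to 0.01, Nfkbia to 0.78, Cxcl2 to 0.92, Tnfaip3 to 0.94, Gbp5 to 0.60, Cd274 to 0.74 and Gbp4 to 0.95. Of 3 nonclassical markers tested 2 were lower, Nr4a1 (−1.11) and Ace (−1.07), and 0 higher. Over the alternative settings Nr4a1 ranged from −1.32 to −0.88 and Ace from −1.29 to −0.17, so neither was past 2-fold in all of them. Of 14 classical markers 3 were higher and 1 lower (median 0.56). None of the 3 higher was past 2-fold in all settings, Ly6c2 falling to 0.71, Hp to 0.75 and Vcan to 0.49. The dissociation list had 1 of 9 higher and 3 lower (median −0.72) and summed to 4624 against 6551 CPM in the monocytes and 1834 against 2347 CPM in Cd3e-positive cells; its part was not tested.

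Il6 was at 162 against 18.4 CPM (2.60, 1.39–3.68), Tnf at 191 against 36.8 CPM (2.11) and Nlrp3 at 252 against 61.3 CPM (1.88). Iigp1 was at 501 against 123 CPM (1.95), and Gm4951 at 121 CPM against 0, at least 6.56-fold higher. Ccl24 (3.40) and Lpl (lipoprotein lipase, 3.14) each came from a single cell after PD1d/IL-33 ACT. Upp1 (2.51), Cflar (2.28), Slc7a11 (2.25), Mapk6 (2.23) and Malt1 (2.11) filled the 10 highest, Cflar, an inhibitor of caspase-8, in 54 of 77 and 8 of 27 cells.

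Lowest were Id2 (−2.03), Ifitm1 (−1.81), Ppt1 (−1.70), Ckb (−1.69), Apoe (−1.65), Gm6377 (−1.61), Adgre4 (−1.59), Hspa1b (−1.55), Irf8 (−1.54) and Cd24a (−1.51). Ckb and Cd24a turned to 0.86 and 0.76 without members that had a UMI of the 5 dendritic genes named above. In PD1d/IL-33 ACT 1 cell held 89.3% of Ckb, 54.2% of Ppt1 and 51.3% of Id2 UMIs. Ly6c2 was higher with both cytokines, at 2521 against 1152 CPM (1.12, 0.90–1.35), and Cish at 180 against 73.5 CPM (1.19, 0.40–2.03).

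Within combination ACT, day 12 was set against day 5: of 3712 genes, 59 were at least 2-fold higher (1.59%) and 99 lower (2.67%) at day 12. MHC class II genes were 4 of the 6 tested past 2-fold, all higher, and their list summed to 21173 CPM at day 12 against 7891 CPM at day 5. H2-Eb1 was at 2334 against 563 CPM (2.03, 1.89–2.17), H2-Aa at 4056 against 1151 CPM (1.81), H2-Ab1 at 2994 against 938 CPM (1.66) and Cd74 at 10645 against 4379 CPM (1.28). The day 12 level of H2-Aa was the highest of the 8 libraries and the day 5 level the lowest.

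Mmp12, a macrophage elastase, had the largest ratio (2.35), but only 5 cells at day 12 and 4 at day 5 had it. Id3 (2.34), Cxcr4 (1.86), Vps37b (1.76), Samsn1 (1.76), H2-Q6 (1.72) and Ifitm1 (1.71) were the others of the 10 highest. Lyz2 was at 13097 against 4626 CPM (1.5).

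Several genes that were high at day 5 were lower in the monocytes at day 12. Ccl24 had a log2 ratio of −3.27 (−3.46 to −3.08), S100a8 of −4.08, S100a9 of −3.19, Ccl12, a CCR2 ligand, of −4.05 and Chil3 of −1.53. With the narrower cell filter Ccl24 was at −2.62, S100a8 at −1.73, S100a9 at −1.08 and Ccl12 at −1.38. The neutrophil list had 3 of 5 lower (S100a8, S100a9 and Mmp8) and 0 higher, with a median of −1.34. Ccl8 was at 0 at day 12, at least 33.5-fold lower, though 1 cell held 92.3% of it at day 5. Ifit1 (−2.96), Wfdc21 (−2.70), Ccl7 (−2.56), Ccl5 (−2.47) and Lcn2 (−2.45) were the others of the 10 lowest, though Ccl7 was at 0.89 with the narrower cell filter and Ccl5 at 1.59 with the rule applied at equal depth, and Tnf stood at −2.45.

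Type I interferon genes had 0 of 13 higher and 5 lower, interferon-γ genes 0 of 15 and 4, and type 2 and repair genes 0 of 11 and 5. Ly6c2 was level (0.06), and the dissociation list had 2 of 10 higher and 1 lower.

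From day 12 to day 26 of combination ACT, 145 of 4919 genes were higher (2.95%) and 120 lower (2.44%) at day 26. Some interferon-inducible and classical genes stood lower, and most nonclassical markers higher. Interferon-γ genes had 3 of 15 lower (Iigp1, Gbp4 and Irgm1) and 0 higher (median −0.43), whereas type I interferon genes had 2 of 14 higher (Ifit3, 1.74, and Cmpk2, 1.10) and 0 lower (median 0.24). Of 14 classical markers 3 were lower (Ly6c2, Chil3 and S100a4) and 1 higher, Thbs1 at 1.54 (median −0.21). Iigp1 was at 45.8 against 501 CPM (−3.20, −3.50 to −2.89), Il6 at 10.8 against 162 CPM (−3.04), Gm4951 at 8.74 against 121 CPM (−2.80) and Rnf19b at 88.0 against 483 CPM (−2.33). Ly6c2 was at 739 against 2521 CPM (−1.76), Chil3 at 485 against 1585 CPM (−1.69) and Cish at 55.6 against 180 CPM (−1.54). Each of the 7 was lower at day 26.

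Mmp12 (−2.39), the growth factor Nrg1 (−2.20), Clec10a (−2.08), Sdc4 (−1.92), Nlrp3 (−1.90) and Ccl24 (−1.86) were also among the 10 lowest. Ccl24, of which 1 cell held 59.3% at day 12, was at 0.11 without the members in which at least 2 of the 7 neutrophil genes were detected.

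Of 8 nonclassical markers tested, 5 were higher at day 26 and 0 lower (median 1.16), with Ace at 234 against 65.0 CPM (1.70), Pglyrp1 at 88.5 against 24.1 CPM (1.53) and Treml4 at 113 against 37.1 CPM (1.39). With at least 1 Ly6c2 UMI required, 4 of 7 were higher (median 1.03). Treml4 ranged from 0.97 to 1.77 over the alternative settings, and Cx3cr1, another of the 5, from 0.78 to 1.41. Neither was past 2-fold in all of them. Ear2 was at 160 against 29.7 CPM (2.10) and Apoe at 603 against 126 CPM (2.17).

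Rgs1 had the largest ratio, 310 against 7.43 CPM (4.20, 3.45–4.74), in 71 of 211 against 3 of 77 cells. Fos was at 2291 against 416 CPM (2.43), and the dissociation list had 4 of 10 higher and 0 lower, summing to 9982 against 4624 CPM in the monocytes and 2444 against 1834 CPM in Cd3e-positive cells; its part was not tested. Hspb1 (at least 16.8-fold) was found in 2 cells and Gdf15 (at least 5.45-fold) in 7. Ccl12 (2.29), Zfyve9 (2.24), Abi3 (2.17) and Krt80 (2.12) were the others of the 10 highest. Ccl12 ranged from 0.64 to 3.36 over the alternative settings and was not past 2-fold in all of them. Abi3 and Zfyve9 were spread over 139 and 95 of 211 cells.

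**Figure D5:**
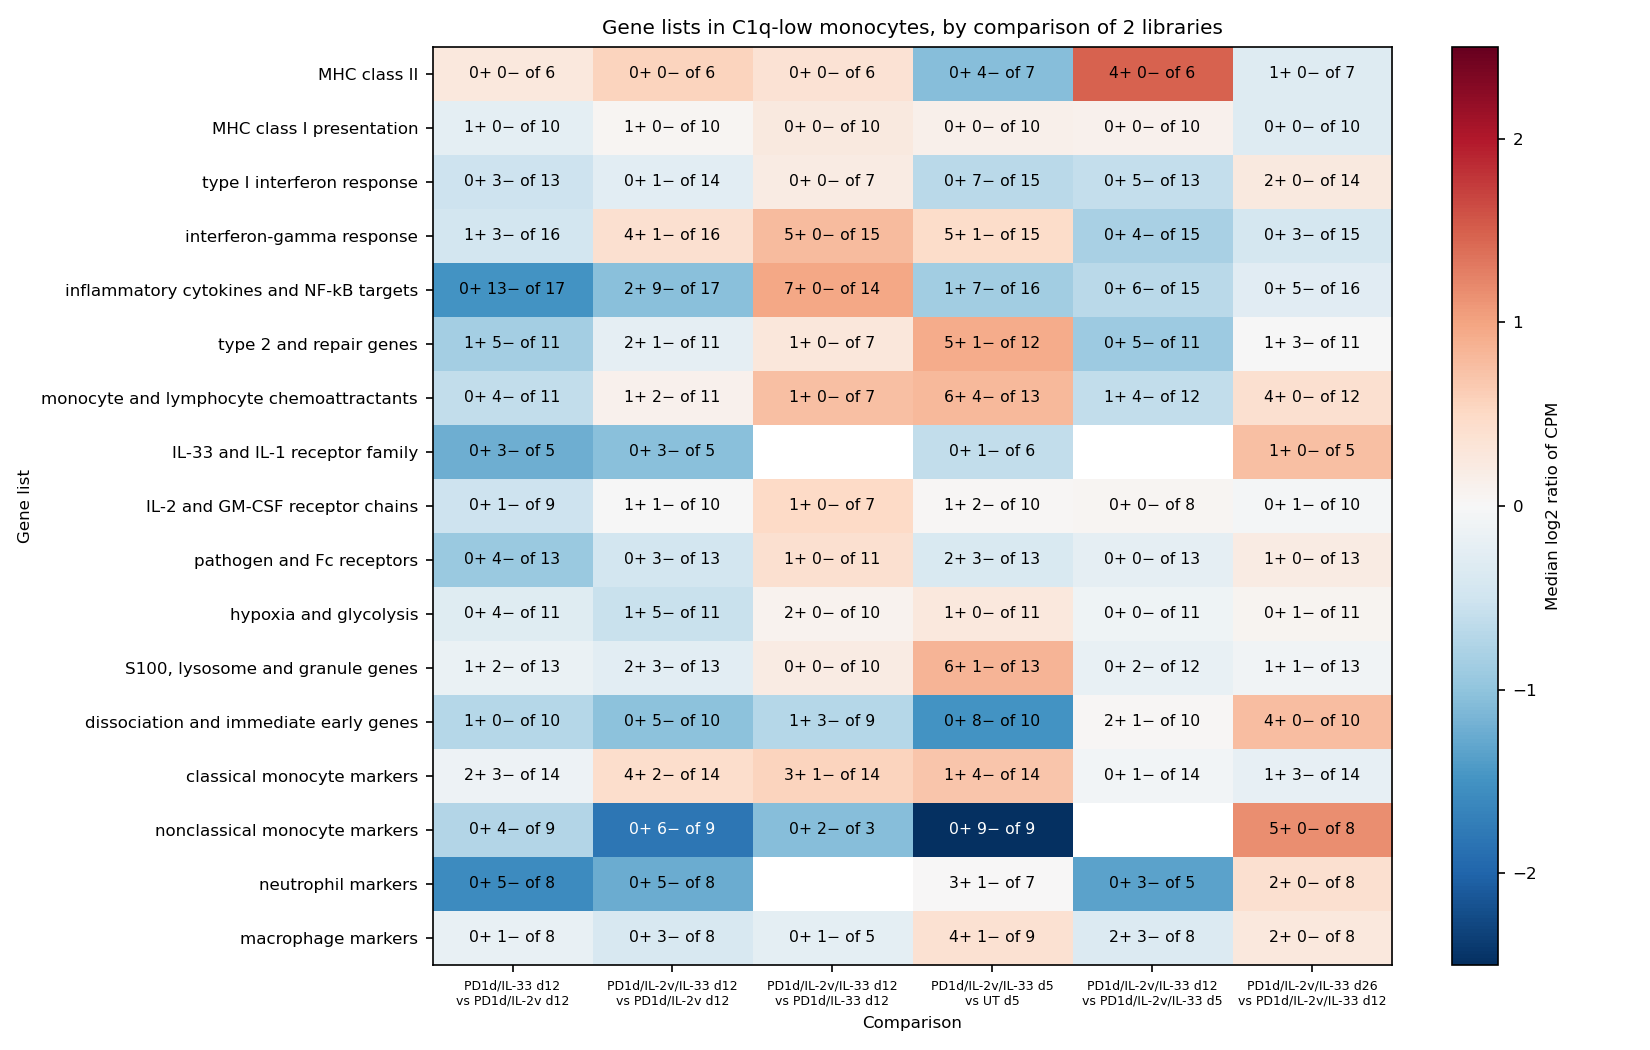
Gene lists (vertical axis) in the 6 pairs of libraries (horizontal axis); the color is the median log2 ratio of the tested genes and the text gives how many were at least 2-fold higher (+) or lower (−) of how many tested, with lists of fewer than 3 tested genes left blank. The nonclassical list runs from 9 of 9 lower at day 5 to 5 of 8 higher between days 12 and 26. At day 5, Cd300e was not past 2-fold in every alternative setting, and between days 12 and 26 Treml4 and Cx3cr1 were not. MHC class II has 4 of 7 lower in combination ACT against untransduced ACT at day 5 (0 of 6 with the narrower cell filter). It has 4 of 6 higher at day 12 against day 5, and both results rest on the same day 5 library.

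Across the 6 pairs, at most 1 of 10 MHC class I genes was past 2-fold in any pair. The 13 macrophage markers in the files and outside the rule summed to 837 to 3748 CPM in the members and to 1848 to 6092 CPM in C1q-positive macrophages, with Apoe the most abundant in 6 of 8 libraries. The cell cycle list summed to 50.6 to 282 CPM in the monocytes and to 563 to 1127 CPM in Cd3e-positive cells.

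Receptor genes for the engineered cytokines were low in these cells. Il1rl1, which encodes the IL-33 receptor ST2, had 0 UMIs in the 5 libraries without combination ACT and 0.956, 3.71 and 2.06 CPM on days 5, 12 and 26 with it. The accessory chain Il1rap was at most 30.6 CPM, the IL-2 receptor α chain Il2ra at most 8.23 CPM and the β chain Il2rb at most 7.65 CPM. Only the common γ chain Il2rg was plain, at 146 to 403 CPM, lowest after combination ACT at day 5 and highest after untransduced ACT at day 5 (−1.40, −1.64 to −1.16). Il33 itself had no UMI in any member.

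Receptors of the colony-stimulating factors were present throughout. Csf2rb, the shared chain of the GM-CSF, IL-3 and IL-5 receptors, was at 450 and 459 CPM after combination ACT at days 5 and 12, at 289 CPM at day 26, and at 301, 312 and 270 CPM after untransduced ACT at day 5, PD1d/IL-2v ACT and PD1d/IL-33 ACT in that order. Csf1r was at 264, 265 and 448 CPM on the 3 days of combination ACT, 245 CPM after PD1d/IL-33, 576 CPM after untransduced ACT at day 5 and 632 CPM with PD1d/IL-2v. The log2 ratio of Csf1r in combination ACT was −1.10 against untransduced ACT at day 5, and at day 12 it was −1.22 against PD1d/IL-2v and 0.11 against PD1d/IL-33 ACT.

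Non-treated tumors and untransduced ACT at day 12, with 15 and 10 members, entered no ratio. In them Il1b was at 6514 and 991 CPM, Chil3 at 513 and 501 CPM, Ly6c2 at 455 and 556 CPM, and Ace at 282 and 294 CPM. A single cell could set such a level, as it did for S100a8 after untransduced ACT at day 12.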

How the data were processed

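Tumor-infiltrating CD45+ cells were profiled with the 10x 5′ V(D)J chemistry. The submitters' processing notes name bcl2fastq, Cell Ranger 2.2.0 and the GRCm38 build, and the authors deposited 1 aggregated matrix of raw UMI counts per gene and cell (27998 genes, 98669511 UMIs). Libraries were read from the barcode suffix and the deposited library table.

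Member counts were summed per library and divided by the library's member total (91785 to 2179213 UMIs) to give CPM. Log2 ratios used 10 CPM as a pseudocount, with exact Poisson limits combined to 95% intervals, which cover counting error only. The calculation was checked on simulated counts with Poisson error alone. That check leaves out the uneven spread of UMIs over cells, so it cannot show how the intervals hold for the real sums. With 1 library per condition and day no test was run. For each pair the 10 highest and 10 lowest genes were named, leaving out ribosomal protein and mitochondrial genes, besides genes of fixed lists, of which 4 genes were not in the files. A gene at 0 was set at 3 counts per library for bounds. Doublets were not removed, and Scrublet in scanpy 1.11.5 served an alternative, as did TMM factors of edgeR 4.0.16. Some genes covered by these rules are not reported here. The members and lists were chosen with earlier results of these data known. Python 3.11.15, numpy 2.4.6, scipy 1.17.1 and pandas 2.3.3 were used.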

Additional observations from a re-analysis of the deposited data

Results flagged for a closer look

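The members of non-treated tumors (15 cells) and of untransduced ACT at day 12 (10 cells) entered no ratio, and 9 levels in them were flagged. Each was above that of untransduced ACT at day 5 and of every other library with at least 20 members. Other levels that were not flagged also met this, such as Apoe at 1777 and 1787 CPM against 855 CPM after untransduced ACT at day 5. In untransduced ACT at day 12, Ccl2 was at 9544 CPM and Ccl7 at 3345 CPM, each from 1 cell. The same library had Ccl9 at 1198 CPM, 81.8% of it in 1 cell, and Hspa1a at 1547 CPM, 85.2% in 1 cell. In non-treated tumors, Ccl7 was at 896 CPM from 1 cell, Spp1 at 888 CPM with 83.7% in 1 cell, Hspa1a at 1842 CPM with 90.2% in 1 cell and Dnajb1 at 339 CPM with 89.4% in 1 cell. Cxcl2 was at 12010 CPM there, found in 8 of 15 cells with 46.7% of its UMIs in 1 of them, against 3832 CPM after untransduced ACT at day 5.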

How the results depend on the processing

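Of 384 gene ratios past 2-fold, 6773 of 6795 values under 18 alternative settings had the same sign and 6293 also remained past 2-fold, leaving out the UMI minimums, which change only which genes are tested. The counts below are genes at least 2-fold higher and lower in the first library named than in the second, and where a value moved the cause was not tested, beyond fewer genes being tested at a higher UMI minimum. Leaving out the cell with most UMIs of each gene, keeping Ly6c2-positive members only and keeping members of 4000 to 15000 UMIs were alternatives chosen after seeing the data.

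PD1d/IL-33 against PD1d/IL-2v had 575 higher and 550 lower genes at a minimum of 10 UMIs, 62 and 143 at 200 UMIs, 141 and 548 with TMM factors, and 124 and 796 without the top cell of each gene, with 176 higher under the later experiment's cell filter. Ccl24 there turned from −1.35 to 2.14 under that filter and 1.87 without lymphocyte genes, and Cd24a from 2.11 to −0.22 without dendritic genes. Combination ACT against PD1d/IL-2v at day 12 had 292 higher at 10 UMIs, 61 and 128 at 200 UMIs, and 302 and 395 with a pseudocount of 1 CPM. Cxcl1 turned from −1.75 to 0.41 under the later filter and 0.52 in members of 4000 to 15000 UMIs, Spp1 from −1.41 to 0.14 under the later filter, and Ccl5 from −2.60 to 1.35 with the gate at equal depth. Combination ACT against PD1d/IL-33 had 382 and 318 at 10 UMIs, 16 and 13 at 200 UMIs, 34 lower with TMM factors, and 193 and 25 without the top cell. Ckb turned from −1.69 to 0.73 under the later filter, 0.86 without dendritic genes, 0.85 without cycling cells and 0.73 without the top cell, and Cd24a from −1.51 to 0.76 without dendritic genes.

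At day 5, combination ACT against untransduced ACT had 103 higher and 159 lower at 200 UMIs, 411 higher with a pseudocount of 1 CPM, and 370 higher with totals without ribosomal and mitochondrial genes. Ccl12 turned from 1.74 to −0.23 and Hdc from −1.10 to 0.24 under the later filter. Day 12 against day 5 had 37 and 63 under the later filter, 133 and 193 at 10 UMIs, 14 and 35 at 200 UMIs, and 155 lower with a pseudocount of 1 CPM. Ccl7 turned from −2.56 to 0.89 under the later filter and Ccl5 from −2.47 to 1.59 with the gate at equal depth. Day 26 against day 12 had 188 lower at 10 UMIs, 52 and 48 at 200 UMIs, and 293 and 190 with a pseudocount of 1 CPM. S100a9 turned from 1.04 to −0.43 under the later filter, −1.35 without neutrophil genes, −0.53 without cycling cells and −0.50 without the top cell, Ccl5 from 1.91 to −1.95 with the gate at equal depth, and Ccl24 from −1.86 to 0.11 without neutrophil genes.

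For members with and without Ly6c2, the higher and lower counts were 18 and 9 without dendritic genes, 17 and 8 without cycling cells and 18 and 8 in members of 4000 to 15000 UMIs, with 17 higher without lymphocyte genes. Against macrophages, 39 were lower under the later filter. In members of 4000 to 15000 UMIs neither pair with PD1d/IL-33 could be fitted, since fewer than 20 cells were left. No paired analysis was possible because each condition and day was 1 library. With 27 cells after PD1d/IL-33 ACT, 3 UMIs correspond to 18.4 CPM, the level below which a gene at 0 there is not informative.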
